A study of Homo sapiens with 3 samples.

Results

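The transcription factors of epithelial-mesenchymal transition (EMT) were compared between H1975 cells and 2 osimertinib-resistant lines derived from them. The genes were ZEB1, ZEB2, SNAI1, SNAI2, TWIST1, TWIST2 and PRRX1, together with VIM, which encodes vimentin and serves as the readout of a mesenchymal state. They were taken by gene symbol, with all of their non-control probes, and are 8 of the 43316 genes on the array, with 15 of the 58200 probes. H1975 is a non-small cell lung cancer line that carries the EGFR mutations L858R and T790M and is sensitive to osimertinib, an inhibitor of mutated EGFR. OR1 and OR2 were selected from it separately in doses of osimertinib that were raised step by step to 2 μmol/L during 4 months. Each is described in the methods as a clone, so each stands for a single selected population. RNA of each line was hybridized to 1 array, so there was no replicate, and the number of arrays limits the precision.

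EMT is a program in which epithelial cells give up cell-cell junctions and apical-basal polarity and take on a spindle shape, motility and a vimentin cytoskeleton. SNAIL (SNAI1), SLUG (SNAI2), ZEB1 and ZEB2 are zinc finger proteins that bind E-box sequences and repress epithelial genes such as CDH1, which encodes E-cadherin. TWIST1 and TWIST2 are basic helix-loop-helix proteins that pair with E proteins, and PRRX1 is a homeobox factor. In lung cancer lines, a mesenchymal state has often been described alongside resistance to inhibitors of EGFR.

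The E-box letters read by the SNAIL and ZEB zinc fingers can be seen in promoters from RefSeq (build GRCh38.p14). CAGGTG and its reverse complement CACCTG, which cannot overlap each other, were searched on both strands and are in capitals. The promoters of CLDN7 (a claudin of tight junctions) and CRB3 (a polarity protein) are shown because they held the most copies among the 4 epithelial genes that were down in OR1 and OR2 and have a promoter in the table, and a promoter of ZEB1 is shown because ZEB1 was the only one of the 7 factors up in both lines. Each sequence ends at the base before the start site.
CLDN7, chr17:7262479-7262728, minus strand: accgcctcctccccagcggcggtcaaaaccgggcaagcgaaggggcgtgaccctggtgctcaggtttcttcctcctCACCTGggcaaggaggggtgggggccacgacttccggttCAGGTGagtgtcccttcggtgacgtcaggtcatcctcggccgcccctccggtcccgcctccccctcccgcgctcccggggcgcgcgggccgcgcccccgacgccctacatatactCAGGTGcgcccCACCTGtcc
CRB3, chr19:6464021-6464270, plus strand: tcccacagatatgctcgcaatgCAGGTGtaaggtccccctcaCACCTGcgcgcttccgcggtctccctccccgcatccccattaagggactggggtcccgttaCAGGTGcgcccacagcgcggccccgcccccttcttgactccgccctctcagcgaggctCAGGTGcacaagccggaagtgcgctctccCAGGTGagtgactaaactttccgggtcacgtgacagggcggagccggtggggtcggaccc
ZEB1, chr10:31318966-31319215, plus strand: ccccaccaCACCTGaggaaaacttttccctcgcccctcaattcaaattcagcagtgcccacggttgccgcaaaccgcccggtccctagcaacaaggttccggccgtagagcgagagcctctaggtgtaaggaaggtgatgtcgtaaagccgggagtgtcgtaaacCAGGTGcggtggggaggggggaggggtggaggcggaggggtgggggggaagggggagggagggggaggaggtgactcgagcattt
The CLDN7 promoter held the letters 4 times, at -174, -135, -20 and -9 from the start site. The CRB3 promoter held them 5 times, at -228, -208, -147, -89 and -60. The ZEB1 promoter held them at -242 and -85. Over all 35116 promoters of the table, as windows of 300 bases, 20.6% held either word, and 33 (0.0940%) held 5 or more copies. Such a window is longer than the 250 bases printed here. Counted in it, the same promoters held 5 (CLDN7), 5 (CRB3) and 3 (ZEB1) copies. The promoter of CLDN4, down in both lines as well, held none in its window, and that of RAB25 held 2. Another promoter of CLDN7 and 5 of the 7 of ZEB1 in the table held none. Promoters were present for 8 of the 19 epithelial genes and 5 of the 8 EMT genes, so no share over a gene group is given. These matches are descriptions of the letters and not binding sites.

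Intensities below are background-corrected and unscaled, with the error estimate of the scanner software after ±. Each array was scaled on its 75th percentile, an intensity of 157 for H1975, 138 for OR1 and 162 for OR2, and a ratio divides scaled intensities. Following the methods, a gene was counted as up in a line at a ratio of at least 2 and as down at a ratio of at most 0.5. The brighter side had to be well above background, and the lowest intensity called so was 12.6 for H1975 and OR2 and 11.4 for OR1. A dim side was set to that intensity or to its own signal where that was higher, and such a ratio is written as at least or at most. The SD given for a log2 ratio is technical, from the scanner software. It covers the reading of 1 array and holds nothing of the spread from culture to culture. The median log2 ratio over the 22417 genes well above background on at least 1 array was 0.04 in OR1 and -0.06 in OR2. Intensities of different probes are not compared with each other, and probe positions are on hg19.

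The signal of 5 of the 8 genes was well above background somewhere. ZEB1, SNAI1, SNAI2 and VIM were so on all 3 arrays, ZEB2 in OR1 alone, and TWIST1, TWIST2 and PRRX1 on none. In OR1, ZEB1 and ZEB2 were up and SNAI1 was down. In OR2, ZEB1 was up and SNAI1 was down. The background of such calls was 8.95% of genes up and 9.34% down in OR1, and 7.47% up and 8.41% down in OR2. In both lines, 1 of the 5 detected genes (ZEB1) was up and 1 (SNAI1) was down, beside 5.09% and 6.32% of all genes tested. The shares are over the 22417 genes well above background on at least 1 array. Counts of 1 or 2 among 5 detected genes are not read as a result about the group.

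**Figure D1:**
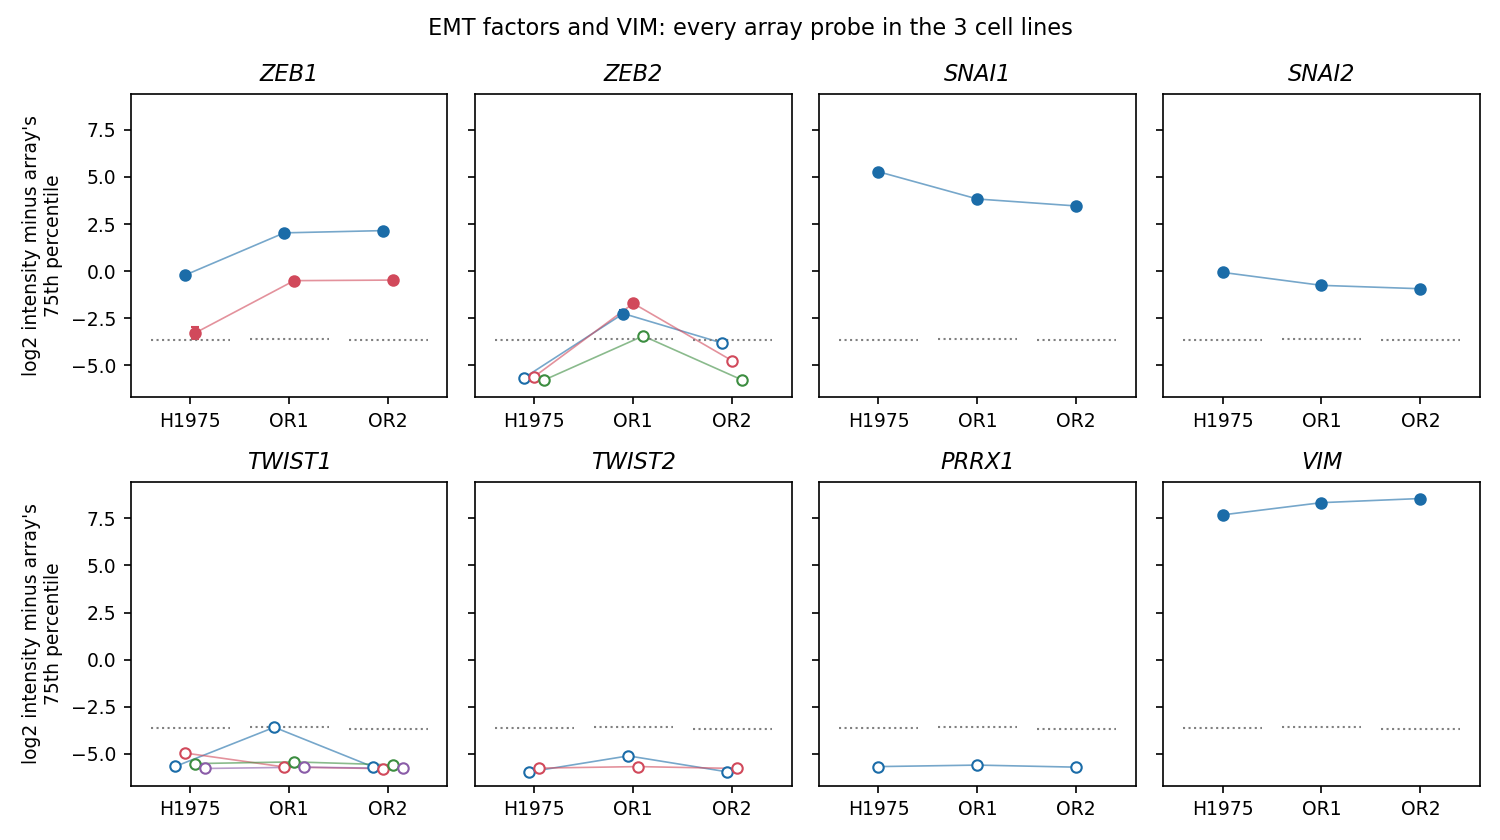
Scaled log2 intensity of every probe of the 8 genes in H1975, OR1 and OR2, 1 colour per probe, with 1 array per line. Filled points were well above background and carry the error of the scanner software, open points were not, and the dotted lines mark the lowest scaled intensity called well above background (-3.65 for H1975, -3.60 for OR1 and -3.68 for OR2). ZEB1 is higher and SNAI1 lower in both resistant lines, and ZEB2 is filled in OR1 alone.

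ZEB1, a repressor of CDH1 and of the miR-200 genes, was measured by 2 probes on chromosome 10 of hg19. At chr10:31818063-31818122 (NM_001128128) its intensity went from 136 ± 13.9 in H1975 to 564 ± 56.5 (OR1) and 718 ± 71.8 (OR2). Both resistant lines were above the parental line by several times the reading error. The ratio was 4.74 in OR1 (log2 2.24, SD 0.21) and 5.14 in OR2 (log2 2.36, SD 0.21). The probe at chr10:31816261-31816320 gave the same direction, from 16.1 in H1975 to 96.6 (OR1) and 116 (OR2). Its ratios of 6.86 and 7.05 had a wider SD of 0.35, and its parental intensity lay close to the lowest one called well above background. OR2 over OR1 was 1.09 at the first probe (log2 0.12, SD 0.20), within the reading error. With scaling on spike-in probes, under which OR1 had an all-gene median of -0.59 (log2), the ratio to H1975 was 3.12 in OR1 and 5.39 in OR2, a gap larger than that error.

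ZEB2, the paralog of ZEB1, was measured by 3 probes on chromosome 2 and was detected in OR1 alone. The probe in NM_014795 at chr2:145182363-145182422 is printed because its signal in OR1 was the clearest of the 3 against its own H1975 signal.
ZEB2 probe: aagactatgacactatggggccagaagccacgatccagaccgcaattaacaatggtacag
In H1975, OR1 and OR2 it read 3.22 ± 3.23, 41.8 ± 5.08 and 5.92 ± 3.31, and the value in OR1 alone was well above background. Its ratio was at least 3.79 in OR1, and OR2 over OR1 was at most 0.258 (log2 -1.96, SD 0.42). The probe at chr2:145146261-145146320 read 3.11, 28.7 and 11.4 in H1975, OR1 and OR2. It gave a ratio of at least 2.61 in OR1 (log2 1.38, SD 0.41) and none in OR2, and OR2 over OR1 was at most 0.375. The probe at chr2:145268973-145269032, in the non-coding transcript NR_033258, read 2.85, 12.6 and 2.93 and was not called well above background on any array. Its 12.6 ± 2.91 in OR1 was nonetheless above 11.4, the lowest intensity called so there. All 3 probes had their highest intensity in OR1. LUM, a fibroblast marker, was also detected in OR1 alone (59.8, at least 5.43 times the parental level). Of the other fibroblast markers, COL1A1 (585, ratio 1.45) and COL1A2 (28.3, ratio 0.162) were well above background in OR1. COL3A1, DCN, PDGFRA, FAP and THY1 were at background there. The part of such cells in the ZEB2 signal was not tested beyond these values.

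SNAI1, the SNAIL repressor, went the other way. Its probe at chr20:48605170-48605229 (NM_005985) read 6112 ± 611 in H1975 against 1968 ± 197 in OR1 and 1782 ± 178 in OR2. The parental line was the highest, and both resistant lines lay below the ratio of 0.5. The ratio was 0.367 in OR1 (log2 -1.45, SD 0.20) and 0.284 in OR2 (log2 -1.82, SD 0.20). OR2 over OR1 was 0.773 (log2 -0.37, SD 0.20), lower in OR2 by more than 1 technical SD, but the direction between the resistant lines depended on the scaling. With scaling on spike-in probes the log2 ratio to H1975 was -2.05 in OR1 and -1.75 in OR2, and without scaling it was -1.63 and -1.78.

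SNAI2, which encodes SLUG, was also highest in H1975 but did not reach the ratio. At chr8:49830710-49830769 (NM_003068) it read 150 ± 15.3 in H1975 against 81.4 ± 8.51 in OR1 and 84.3 ± 8.86 in OR2. The ratio was 0.617 in OR1 (log2 -0.70, SD 0.21) and 0.546 in OR2 (log2 -0.87, SD 0.21). OR2 over OR1 was 0.885 (log2 -0.18, SD 0.21), within the reading error, while with scaling on spike-in probes the ratios to H1975 were 0.407 in OR1 and 0.572 in OR2.

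The basic helix-loop-helix factors were not detected. The 2 TWIST1 probes in NM_000474 read 3.07, 11.4 and 3.08 (chr7:19156462-19156521) and 3.40, 3.17 and 3.34 (chr7:19155645-19155704) in H1975, OR1 and OR2. The other 2 probes with the TWIST1 symbol lie at chr7:19039592-19039651 and chr7:19039842-19039901 in a predicted RNA, XR_428085, and read between 2.61 and 5.02. TWIST2 read between 2.51 and 3.96 over its probes at chr2:239832044-239832103 and chr2:239795604-239795663. PRRX1 at chr1:170708348-170708407 read 3.04, 2.83 and 3.07. None of these 7 probes was well above background on any array, so no ratio was computed for the 3 genes, and a change below this limit could not have been seen.

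VIM encodes vimentin, the intermediate filament protein of mesenchymal cells. Its single probe is printed because it spans 910 bases of the genome (chr10:17278347-17279256, NM_003380) with 60 bases of sequence, so that it reads spliced RNA.
VIM probe: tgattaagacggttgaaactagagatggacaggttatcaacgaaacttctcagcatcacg
VIM read 32442 ± 3244 in H1975, against 44860 ± 4486 in OR1 and 61140 ± 6114 in OR2. It was bright in all 3 lines, including the parental one, and no gene spot on any array was saturated. The ratio was 1.58 in OR1 (log2 0.66, SD 0.20) and 1.83 in OR2 (log2 0.88, SD 0.20), higher in both by more than 3 technical SD yet below the ratio of 2. In OR2 the ratio was 2.21 with quantile normalization and with the authors' normalized values. With scaling on spike-in probes it was 1.04 in OR1 and 1.92 in OR2. OR2 over OR1 was 1.16 (log2 0.22, SD 0.20).

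OR1 and OR2 were also fitted by limma as 2 resistant samples against the lone H1975 array, which was assumed to vary like them, with 1 residual degree of freedom. Over all genes, 0.928% were higher and 1.66% were lower in the resistant lines at an adjusted p under 0.05. None of the 5 detected EMT genes reached it, and 3 of the 5 had an unadjusted p under 0.05, as did 4177 of the 22417 genes. ZEB1 came closest, with a log2 difference of 2.30 (SE 0.31, limma adjusted p 0.054), higher in 2 of 2 resistant arrays. The adjusted p was 0.13 for SNAI1 (log2 -1.63, SE 0.34), 0.20 for ZEB2 (2.61, SE 0.74), 0.30 for SNAI2 (-0.79, SE 0.31) and 0.32 for VIM (0.77, SE 0.32). The ZEB2 fit used intensities below background in H1975 and OR2.

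TWIST proteins act as pairs with E proteins, and ID proteins take E proteins out of such pairs, so the 7 genes of both families were examined. All 7 passed the background call on some array, and the median log2 ratio was 0.29 in OR1 and -0.07 in OR2. None was up or down in both lines, beside 5.09% and 6.32% of all genes tested. The E protein TCF4 had the pattern of ZEB2. Its probe (NM_003199) stood at 81.1 in OR1 against 2.66 in H1975 and 2.76 in OR2, at least 7.36 times the parental level (log2 2.88, SD 0.34), with OR2 over OR1 at most 0.133. The other E proteins did not reach the ratio, with log2 ratios in OR1 and OR2 of 0.71 and 0.55 for TCF12 and of -0.18 and -0.00 for TCF3. Among the ID genes the log2 ratios were 0.29 and -0.13 for ID1, -0.61 and -0.32 for ID2, and 0.97 and 0.71 for ID3. ID4 was down in OR2 (0.455, log2 -1.14, SD 0.21) and had a log2 ratio of -0.25 in OR1.

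The partners of the repressors were in large part near the level of the parental line. The 14 corepressor genes, which encode proteins that SNAIL and ZEB factors recruit (CtBP, histone deacetylases, LSD1 and Polycomb proteins among them), were well above background on all 3 arrays. Their median log2 ratio was 0.07 in OR1 and -0.04 in OR2. None was up or down in both lines, beside 5.09% and 6.32% of all genes tested. In OR1 alone, EZH2 (a histone methyltransferase, ratio 0.426) and RCOR1 (CoREST, 0.498) were down, with 0.563 and 0.677 in OR2. Of 11 genes for the turnover of SNAIL and ZEB proteins, none passed in both lines, with medians of 0.15 and 0.28. Lists this short would hold few such calls at those shares, so their absence is not read as a result. BTRC, a ubiquitin ligase subunit that marks SNAIL for degradation, was up in OR2 (2.05) and had a ratio of 1.43 in OR1.

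Of 16 further transcription factors linked to EMT, 10 passed the background call on some array. None was up in both lines and 2 were down in both, beside 5.09% and 6.32% of all genes tested. FOXQ1, a forkhead factor, went from 587 in H1975 to 11.6 (OR1) and 4.92 (OR2), so its ratios were at most 0.0226 and 0.0209. SOX4, a high mobility group factor, read 123, 9.56 and 39.4, and its ratio was 0.106 or less in OR1 and 0.311 in OR2. Neither gene was well above background in OR1. In OR1 alone, KLF8 was up (2.97, with 1.48 in OR2; another of its probes was below background) and HMGA2 was down (0.421, with 0.520 in OR2). The median log2 ratio was -0.24 in OR1 and -0.32 in OR2, and was 0.15 in OR1 over the 8 that passed the background call on every array.

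The epithelial genes that SNAIL and ZEB factors are known to repress, or that oppose them, were mostly lower in the resistant lines. All 19 were well above background in H1975, 13 were down in both lines and none was up in either. Of all genes tested, 6.32% were down in both lines. Those include genes not detected in H1975, which could not be called down. The list was also chosen with earlier results of these data known. CLDN3, another claudin, had ratios of 0.644 and 1.19. The median log2 ratio was -3.17 in OR1 and -2.23 in OR2, with undetected genes at their bound, against 0.04 and -0.06 over all genes. It was -1.87 and -1.43 over the 14 genes above background on every array, and -2.39 and -1.86 with normexp background correction. OVOL1 and OVOL2 encode zinc finger repressors of ZEB1 and of EMT. OVOL2 went from 1621 in H1975 to 7.56 (OR1) and 12.2 (OR2), with ratios of at most 0.00802 and 0.00757. OVOL1 read 1333, 3.08 and 2.93, with ratios of at most 0.00976 and 0.00921. Both were bright in the parental line and not above background in either resistant line. GRHL2, an epithelial factor that represses ZEB1, had ratios of at most 0.0278 and 0.0263 (at most 0.253 and 0.239 at a dimmer probe). ESRP1, an epithelial splicing regulator, had ratios of at most 0.0400 and 0.0377.

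CDH1, the best known target of these repressors, went from 5644 in H1975 to 101 (OR1) and 464 (OR2) (chr16:68869214-68869273). Its ratio was 0.0205 in OR1 (log2 -5.61, SD 0.07) and 0.0800 in OR2 (log2 -3.64, SD 0.06). It was well above background in all 3 lines, and OR2 over OR1 was 3.90, more than the reading error. CLDN7 and CRB3, whose promoters are printed above, had ratios of 0.0459 and 0.109 in OR1 and of 0.0922 and 0.213 in OR2. Both were also nearer to the parental level in OR2. KRT18, the keratin of simple epithelia, did not reach the ratio, with 0.884 and 0.806.

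**Figure D2:**
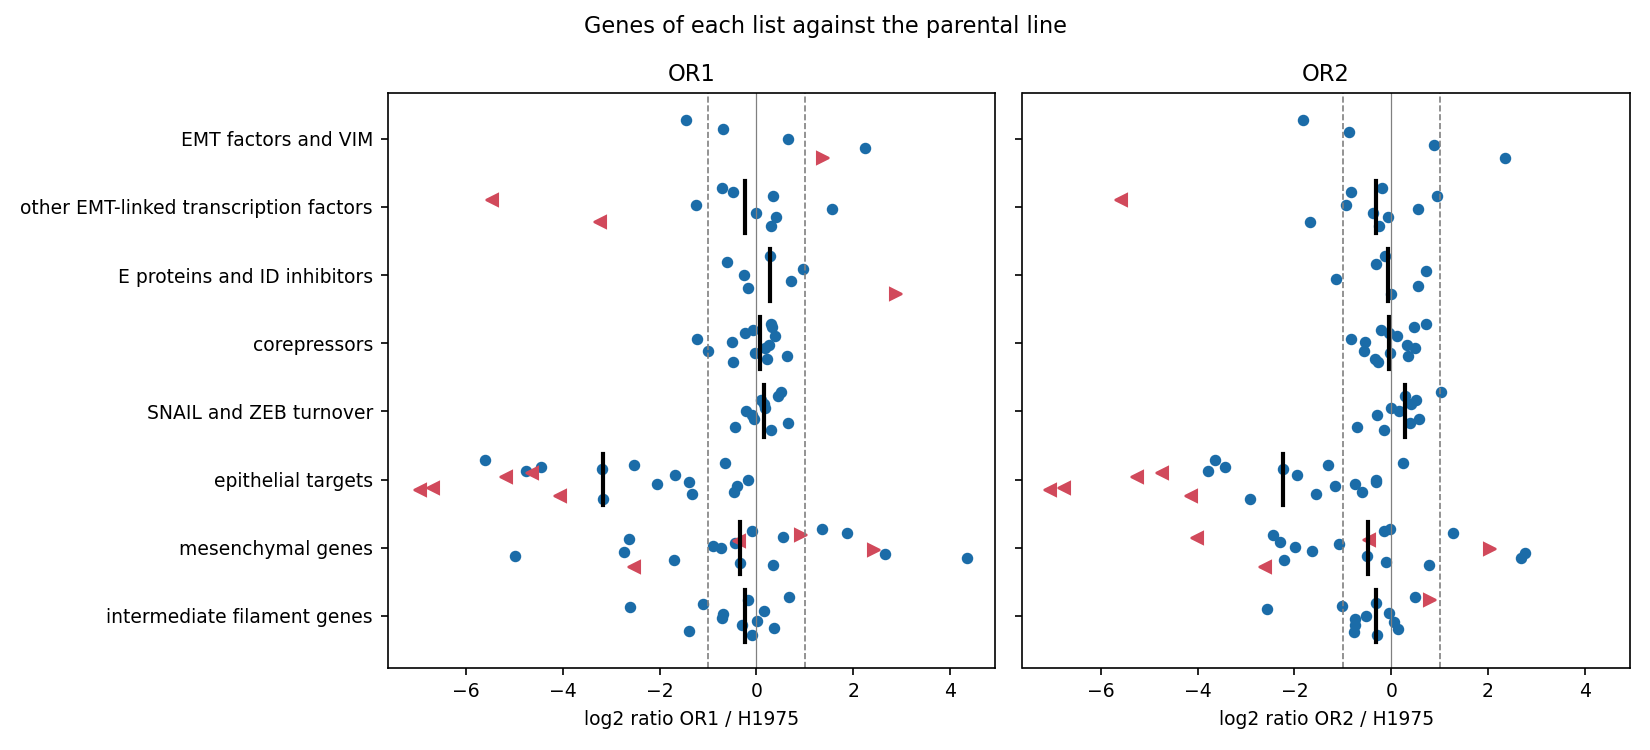
Log2 ratio to H1975 of the genes of 8 lists (antisense RNAs and cell type markers are not drawn) in OR1 (left) and OR2 (right), with dashed lines at ratios of 2 and 0.5. Blue points are ratios, red triangles are upper or lower bounds of genes well above background on a single side, and black bars are list medians (none is drawn for the EMT factors and VIM). The epithelial genes lie to the left, with medians of -3.17 and -2.23, and the other lists drawn have medians between -0.47 and 0.29.

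The mesenchymal genes did not move one way. Of 26 genes, 20 passed the background call on some array, 3 were up in both lines and 4 were down in both. The shares over all genes tested were 5.09% and 6.32%. The median log2 ratios of the mesenchymal genes were -0.33 (OR1) and -0.47 (OR2). TAGLN (transgelin, an actin-binding protein) went from 334 in H1975 to 6012 (OR1) and 2193 (OR2), with ratios of 20.5 and 6.39, and of 21.4 and 7.11 at a further probe. S100A4, a calcium-binding protein, had ratios of 6.28 and 6.80, and CCN2, a matrix-associated growth factor, had ratios of 3.68 and 2.41. The 4 down in both lines encode secreted, matrix or surface proteins, as do CCN2 and many other genes of the list. TGFBI (a matrix protein) had ratios of 0.307 and 0.216. COL1A2 (a collagen I chain) had 0.162 and at most 0.0615, and WNT5A (a secreted ligand) had at most 0.174 and 0.164. NT5E (the surface nucleotidase CD73) had 0.150 and 0.322. CDH2, which encodes N-cadherin, read between 8.45 and 9.53 and was at background in every line.

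VIM is an intermediate filament gene, and 13 other genes linked to such filaments were examined. None was up in both lines, and 2 keratins of simple epithelia were down in both, beside 5.09% and 6.32% of all genes tested. KRT7 went from 131484 in H1975 to 18866 (OR1) and 22949 (OR2), with ratios of 0.164 and 0.170. KRT19 had ratios of 0.463 and 0.492, close to the threshold. KRT8 had 1.12 and 0.964, and NES (nestin, a partner of vimentin) had 0.811 and 0.595. The median log2 ratio was -0.24 in OR1 and -0.31 in OR2.

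Antisense RNAs of the EMT genes were measured by several probes, which did not always share a direction. VIM-AS1 had ratios of 0.434 and 0.338 at chr10:17256419-17256478 and of 1.98 and 1.65 at chr10:17271694-17271753, so its probes were on opposite sides of 1 in both lines. ZEB1-AS1 had ratios of 1.53 and 1.60 at chr10:31605467-31605526 and of 0.766 (log2 -0.38, SD 0.40, within the reading error) and 2.32 at chr10:31607381-31607440, so both probes were higher in OR2. ZEB2-AS1 was at background in every line.

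The genes next to each EMT gene on its chromosome were examined for a shared change. The 20 nearest genes were taken among those well above background on all 3 arrays. Around ZEB1, within 1.72 Mb, their median log2 ratio was 0.07 in OR1 and -0.27 in OR2. None was up in both lines and 2 were down in both. Around SNAI1, within 0.742 Mb, the medians were 0.21 and 0.13, with 3 up in both lines and none down. Of all genes tested, 5.09% were up and 6.32% down in both lines. Counts this small among 20 neighbours are not read as a result. Around VIM they were 0.18 and 0.14, around ZEB2 0.14 and 0.07, and around SNAI2 0.07 and 0.25. For ZEB1 and SNAI1 the neighbours' medians were thus far smaller in size than the change of the gene itself. The lowest medians were around PRRX1, at -0.59 and -0.51.

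The 18589 genes that every array called well above background were ranked by likeness to each EMT gene, and those with the most similar pair of log2 ratios were identified by Euclidean distance over the 2 lines. For ZEB1 they were GBP2 (4.61 and 5.03), PGPEP1 (4.77 and 4.91) and the transcript ENST00000609777 (4.97 and 5.11). For SNAI1 they were XLOC_l2_008009, LINC01585 and BRICD5, for SNAI2 they were SLMO1, TMEM189 and RPL30, and for VIM they were AF461897, ATG13 and ERC2-IT1. The distances were at most 0.07 on the log2 scale. A pair of ratios is a likeness over 2 points only.

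The cell type of the lines was checked with marker genes. Of 8 lung epithelial markers, 7 were well above background in every line and SFTPB in none. EPCAM, KRT7 and KRT19 were down in both lines, beside 6.32% of all genes tested. The summed unscaled intensity of the marker probes was 385773 for H1975, 148008 for OR1 and 172951 for OR2. The sum rests on a few bright keratin probes. The other markers varied, with ratios in OR1 and OR2 of 1.12 and 0.964 for KRT8, 0.884 and 0.806 for KRT18, 0.252 and 1.36 for NKX2-1, and 0.770 and 1.57 for NAPSA. The median log2 ratio of the 7 was -1.11 in OR1 and -0.31 in OR2, and EPCAM and KRT18 are also in the list of epithelial targets. The part of these markers in the ratios of the epithelial targets was not tested. In such bulk RNA, fewer cells of a type and less RNA per cell cannot be told apart. Of 8 fibroblast markers, 7 of them also in the mesenchymal list, the lines H1975, OR1 and OR2 had 3, 3 and 1 above background, with summed intensities of 692, 690 and 110, and COL3A1, DCN, PDGFRA and THY1 were below background in every line. Of 3 leukocyte markers, 2 were above background in each line, with sums of 288, 1009 and 1803. PTPRC read between 20.5 and 21.0, CD3E was below background, and CD14 was up in both lines (4.25 and 6.56). The 3 endothelial markers summed to 89.0, 97.9 and 104. The part of other cells in the ratios of ZEB1, ZEB2 and VIM was not tested beyond these values.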

How the data were processed

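Messenger RNA of H1975, OR1 and OR2 was measured on 1 Agilent single-colour array per line. The authors deposited scanner output from Agilent Feature Extraction (10.7.1.1 in the file headers, 9.5.1.1 in the submitters' processing notes), holding the intensity of every spot after background correction and before any scaling between arrays. A deposited table of the authors' normalized values had a median intensity of 9.51, not on the log2 scale, in each column. It differed from quantile-normalized intensities by a median of 0.0013 on the log2 scale over 58200 probes. No column was left unmapped.

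Control spots and outlier spots were left out, repeated spots were averaged on the log2 scale, and the 75th percentile of each array was subtracted. The brightest probe by mean scaled intensity stood for a gene, and every probe of the 8 genes was reported. The ratios of 2 and 0.5 come from the methods. The ratio counts had no test. limma 3.58.1 in R 4.3.3 fitted OR1 and OR2 as 2 resistant samples against H1975 over 22417 genes, with Benjamini-Hochberg adjustment. Both procedures were tested on simulated data. Python 3.11.15, numpy 2.4.6, pandas 2.3.3 and scipy 1.17.1 were used.

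The 8 genes and the 12 other lists were chosen with earlier results of these data known, and some listed genes are not reported here. Of each other list, at most 4 genes per direction past the ratio in both lines were named, by the change in the less changed line. E proteins and ID genes were named whatever their values. CDH1, CDH2, CD14, CLDN7, CRB3, the promoters and genes past the ratio in a single line were named after their values were seen. CTGF and INADL on the array are CCN2 and PATJ by RefSeq accession, and T is TBXT. The alternatives were normexp with an offset of 50, median scaling, no scaling, quantile normalization, scaling on 7 spike-in probes, the authors' normalized values, other background filters, other probe rules, outlier spots kept, saturated spots left out, and ratios of 4 and 1.5.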

Additional observations from a re-analysis of the deposited data

Results flagged for a closer look

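For 8 genes of the lists, OR1 and OR2 lay on opposite sides of H1975, each by more than 1 technical SD. The share of all genes with such a pattern was not counted, so this number is not read as a result. With 1 array per line, OR1 against OR2 was not tested. None of the 8 EMT genes was among these 8 genes. The log2 ratio was -1.99 in OR1 and 0.45 in OR2 for NKX2-1, a lung lineage factor, and -0.38 and 0.65 for NAPSA, a lung epithelial protease. COL1A1, a collagen I chain, had 0.54 and -2.45. The claudin CLDN3 had -0.64 and 0.25, and the endothelial cadherin CDH5 had -0.59 and 0.28. SOX9 had 0.30 and -0.26, and the histone methyltransferase SUV39H1 had 0.22 and -0.34. The antisense RNA SNAI3-AS1 had -0.35 and 0.32 at the brightest of its 4 probes, while the others had ratios of 0.897 and 1.05, 0.845 and 1.06, and 0.646 and 0.821, none above 1 in OR2 beyond the reading error.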

How the results depend on the processing

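Of 98 ratios of the 5 detected EMT genes under other settings, 83 stayed within 1 technical SD of the reported value and none reversed. Many of the 98 could not move, so this count overstates how far the ratios were challenged. No gene spot was saturated, and genes with a single probe were untouched by the median over probes. Among these ratios the background filters altered ZEB2 alone, and the authors' values were nearly the quantile-normalized ones. Over all the settings ZEB1 ranged from 3.12 to 5.70 in OR1 and from 3.93 to 6.02 in OR2, and SNAI1 from 0.242 to 0.382 and from 0.280 to 0.312. The number of EMT genes up in OR1 was 1 in place of 2 with normexp, spike-in scaling, only genes above background on all 3 arrays or a ratio of 4, each without ZEB2, and 3 with no background filter (TWIST1 added) or a ratio of 1.5 (VIM added). The number down in OR1 was 2 with spike-in scaling or a ratio of 1.5 (SNAI2 added) and 0 with a ratio of 4. The number up in OR2 was 2 with quantile normalization, the authors' values or a ratio of 1.5 (VIM added) and with no background filter (ZEB2 added). The number down in OR2 was 2 with a ratio of 1.5 and 0 with a ratio of 4. The number up in both lines was 2 with no background filter or a ratio of 1.5, and the number down in both was 2 with a ratio of 1.5 and 0 with a ratio of 4. By limma, 0 of the EMT genes passed, against 2 by ratio in both lines. The cause of the changes with the background and scaling settings was not tested. ZEB2 in OR1 was at least 1.30 with normexp and 10.5 with no background filter, a ratio over an intensity below background. Spike-in scaling moved the median of all genes in OR1 to -0.59, and no scaling to -0.15. Of 264 list medians, 30 moved by more than 1 technical SD, and medians near 0 (E proteins, corepressors and turnover genes) changed sign in OR1 with spike-in scaling. No paired analysis was possible because each line has 1 array. Without OR1 or OR2 the limma fit has no residual degree of freedom.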

Other observations

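Besides ZEB2 and TCF4, 2 mesenchymal genes were detected in OR1 alone. LUM, the matrix proteoglycan lumican, stood at 59.8 in OR1 against 2.50 in H1975 and 2.53 in OR2, at least 5.43 times the parental level. CDH11, a mesenchymal cadherin, read 2.97, 21.0 and 3.03, a ratio of at least 1.91. MMP2, a matrix metalloprotease, was detected in OR2 alone, with 4.27, 2.56 and 53.0 and a ratio of at least 4.10. SPARC, a matrix protein, had a ratio of 0.0314 in OR1 and of 0.714 in OR2. ACTA2, smooth muscle actin, was up in OR1 (2.56) with a ratio of 0.977 in OR2. FN1, which encodes fibronectin, was down in OR2 (0.205, log2 -2.29, SD 0.35) with a ratio of 0.735 in OR1. Its intensity of 15.5 in OR2 lay close to the lowest one called well above background. These genes were chosen after their values were seen, and OR1 against OR2 was not tested.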
